A study of Mus musculus with 12 samples.

Results

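The Notch pathway genes described here were 10 genes given by symbol, out of 24906 genes listed for each culture environment. They were the receptors Notch1, Notch2 and Notch3, the ligands Jag1, Jag2, Dll1 and Dll4, the ligand-handling ubiquitin ligase Neurl1b, and the transcriptional targets Hes1 and Hey1. All 10 were found in both tables. Another 66 genes of the pathway, sorted by role, were followed beside them. RNA-Seq had been carried out on 12 libraries of organoids grown from small-intestinal tumors of mice. Every library, controls included, was labelled with the genotype Smad4KO;BRAFV600E/+ and the lentiviral construct pINDUCER-SMAD4, which expresses SMAD4 when doxycycline (dox) is given, and the alleles had been recombined by tamoxifen, given to young adult mice some months before tumors were taken, through a Cre recombinase driven by the Villin promoter in intestinal epithelium. The lines were independent puromycin-selected cultures, and their medium held EGF, the BMP inhibitor Noggin and R-Spondin.

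In basement membrane extract (BME), a gel in which organoids grow in 3 dimensions, the libraries were untreated organoids of lines 682, 700 and 889, organoids of lines 700 and 889 given 4 µg/mL dox for 48 h, and 1 further library of line 682. The title of that library reads as dox, its treatment label gives the same dox dose with the word mock, and the study's methods also speak of a mock plasmid, so whether it received dox, or lacked the inducible construct, was not established. It is called the mock library here and was kept with the controls, as the study's number of vehicle samples implies, which gave 2 dox and 4 control libraries in BME. On tissue culture plastic without BME, lines 560, 700 and 889 each gave 1 untreated and 1 dox library. Same-line pairs were therefore 2 dox pairs and 1 mock pair in BME and 3 dox pairs on plastic.

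Notch signaling passes between touching cells. A Jagged or Delta ligand on 1 cell engages a Notch receptor on its neighbour, the ligand is ubiquitinated and pulled inward by ligases of the Mindbomb and Neuralized families, and the receptor is cut by ADAM proteases and then by γ-secretase. The freed receptor fragment joins RBPJ and Mastermind in the nucleus and switches on repressors of the HES and HEY families. In intestinal crypts this pathway maintains stem and progenitor cells and, through HES1, holds back Atoh1, the factor that commits cells to the secretory lineages.

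Levels are given as FPKM (fragments scaled for transcript length and for sequencing depth) as deposited, and changes as dox minus control on the log2(FPKM + 1) scale, which understates the change of low genes. Reads rebuilt from these values numbered 14550605 to 16342039 for a BME library and 16960530 to 20999100 for a plastic one. Smad4, the gene the construct supplies, measured 17.2 and 27.3 FPKM in the BME dox libraries against 6.23 to 10.3 in the 4 controls, and 18.1 to 73.6 against 1.54 to 4.76 on plastic. In the mock pair Smad4 was 10.3 FPKM against 8.88 in untreated line 682. The untreated line 560 library on plastic stood apart: with the tested genes split by transcript length into 4 equal bins, the median deviation of the longest bin from the gene means minus that of the shortest was -0.78 (log2) there and between -0.04 and 0.31 in the other plastic libraries. Notch1, Notch2, Notch3, Jag1 and Neurl1b are long transcripts, in the 87.9th percentile of length or above, so plastic changes and the interaction values named below are also given without it. Epithelial markers were present, with 8 of 8 at a mean of at least 0.5 FPKM in BME and 7 of 8 on plastic, while 7 fibroblast markers together reached at most 5.79 FPKM and 6 endothelial markers at most 5.22. In bulk RNA, fewer cells of a type and less RNA per cell cannot be told apart.

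In the NCBIM37 annotation (mm9 coordinates) Jag1 lies on the minus strand at chr2:136907192-136942380, Neurl1b on the plus strand at chr17:26551910-26583283 and Notch1 on the minus strand at chr2:26313423-26372183. The 250 bases upstream of their RefSeq start sites (build GRCm38.p6) are shown because the results below turn most on these 3 genes. Each runs 5′ to 3′ in the direction of transcription, and capitals mark an E-box (CANNTG) or N-box (CACNAG), the sites that basic helix-loop-helix factors such as the HES proteins can bind.
Jag1, chr2:137116521-137116770, minus strand: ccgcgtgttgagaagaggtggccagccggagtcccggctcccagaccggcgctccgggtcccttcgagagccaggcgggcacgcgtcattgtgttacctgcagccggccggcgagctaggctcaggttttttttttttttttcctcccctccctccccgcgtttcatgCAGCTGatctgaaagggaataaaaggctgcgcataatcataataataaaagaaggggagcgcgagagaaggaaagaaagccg
Neurl1b, chr17:26414609-26414858, plus strand: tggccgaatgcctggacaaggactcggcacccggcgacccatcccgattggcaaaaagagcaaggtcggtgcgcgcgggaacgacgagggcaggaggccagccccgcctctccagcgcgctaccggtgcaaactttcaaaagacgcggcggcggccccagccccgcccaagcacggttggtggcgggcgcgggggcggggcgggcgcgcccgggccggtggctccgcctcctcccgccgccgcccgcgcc
Notch1, chr2:26503823-26504072, minus strand: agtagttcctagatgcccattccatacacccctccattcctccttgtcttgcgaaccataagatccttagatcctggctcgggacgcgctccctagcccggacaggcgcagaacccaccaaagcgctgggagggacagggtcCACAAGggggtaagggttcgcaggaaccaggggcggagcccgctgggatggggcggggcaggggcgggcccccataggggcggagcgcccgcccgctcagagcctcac

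The Jag1 stretch held 1 E-box, 82 bases before the start site, the Notch1 stretch held 1 whole N-box, 108 bases before it, and the Neurl1b stretch held neither. Their GC content was 57.2%, 66.0% and 75.2% for Jag1, Notch1 and Neurl1b. Promoter windows of 250 bases before and 50 after the start site were at hand for 8 of the 10 genes (9 windows), Hes1 and Hey1 excepted. On both strands none of the 9 held TGGGAA, the core of the RBPJ site, which was present in 25.6% of all 32851 windows, or the SMAD palindrome GTCTAGAC, present in 0.213%. An E-box was present in 72.3% of all windows and an N-box in 42.5%. Dll1, with 2 windows, had 4 E-boxes, and Jag1 and Neurl1b had 1 each, that of Neurl1b outside the stretch shown. Notch1 had 3 N-boxes, Notch3 had 2, and Notch2, Dll1 and Dll4 had 1 each. These matches describe the letters of the windows only.

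The dox arm was tested against the control arm by limma over all genes at a mean of at least 0.5 FPKM, where a call needed an adjusted p under 0.05 and a change over 1 in size. In BME 9 of the 10 genes could be tested (Hey1 was too low) and 0 were called, where 0.0231% of 12996 genes were called. On plastic 8 could be tested (Hey1 and Dll4 were too low) and 0 were called, against 0.0324% of 12333 genes. Adjusted p over all genes ran from 0.959 to 0.998 in BME and from 0.599 to 0.993 on plastic. At an unadjusted p under 0.05 there was 1 gene in BME, Neurl1b, against 4.09% of all genes, and 1 on plastic, Jag1, against 8.29%. The median change over the tested members was 0.18 in BME and 0.07 on plastic, beside -0.01 and 0.01 over all genes.

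**Figure D1:**
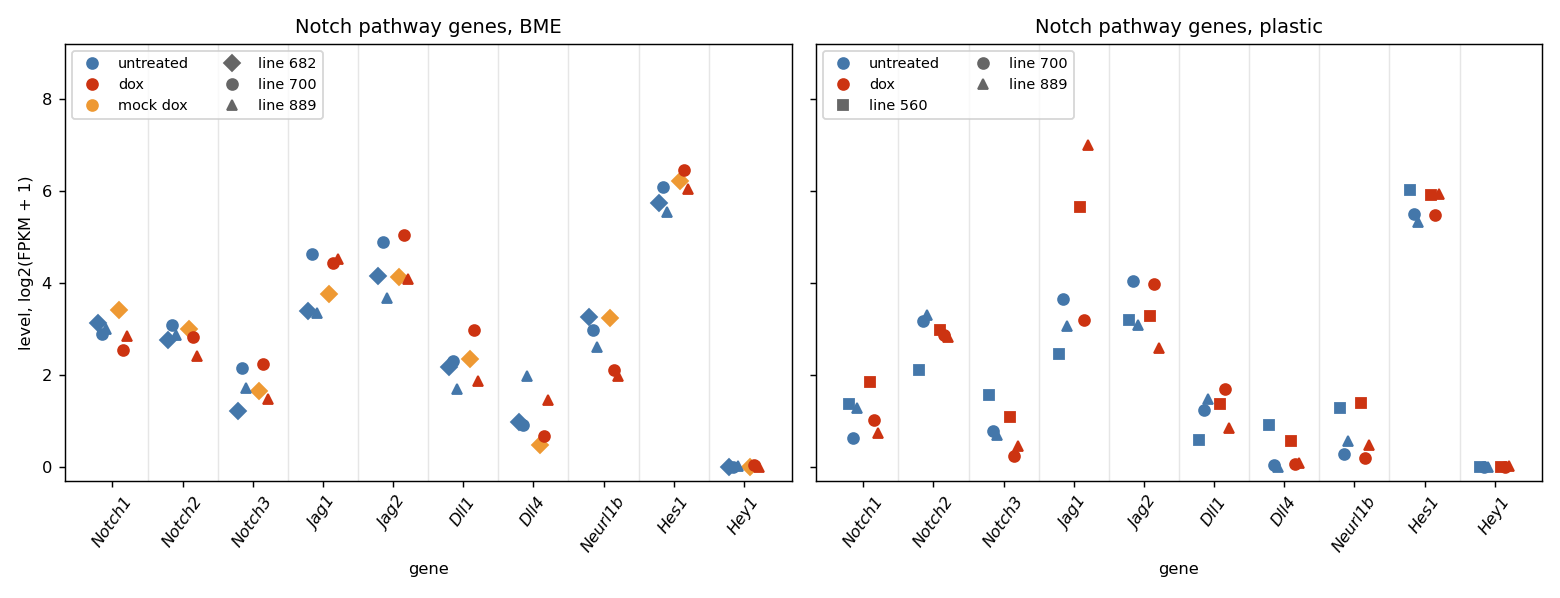
Level of each of the 10 genes in every library, as log2(FPKM + 1), with BME on the left and plastic on the right; color gives the treatment and shape the organoid line. Hes1 was the highest gene in BME, Hey1 lay at or near 0 throughout, and Jag1 in the plastic dox libraries of lines 560 and 889 stood far above its other values.

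Among the receptors, Notch1 measured 4.84 and 6.26 FPKM in the BME dox libraries of lines 700 and 889. The BME controls measured 7.85 (untreated 682), 6.45 (untreated 700), 7.01 (untreated 889) and 9.72 (mock 682). Both dox libraries were thus below all 4 controls, a pattern of 5.83% of the genes tested in BME, and 2 of the 9 members, Notch1 and Neurl1b, had it. The highest control values came from line 682, which had no library in the dox arm. The same-line changes were -0.35 in line 700 and -0.14 in line 889. The limma change was -0.41 (SE 0.20, adjusted p = 0.959), and a two-sided exact permutation test of this gene alone gave p = 0.133, the smallest that 2 against 4 libraries allow. With the line as a block the limma change was -0.25 (adjusted p = 0.714). In the mock pair Notch1 went the other way, by 0.28, and with the mock library counted as dox the change was -0.07. The contrast of long with short transcripts described above was 0.14 in the mock library against -0.11 in untreated line 682, 0.01 against 0.07 in the dox pair of line 700 and -0.11 against 0.02 in that of line 889. It thus moved the same way as Notch1, a transcript in the 98.3rd percentile of length, in each of the 3 BME pairs, and its part in the result was not tested.

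On plastic Notch1 was low in all libraries, at 2.62, 1.04 and 0.674 FPKM with dox and 1.59, 0.566 and 1.46 untreated for lines 560, 700 and 889. Lines 560 and 700 were higher with dox and line 889 lower, so the arms overlapped. The change was 0.10 (SE 0.37), and it was 0.24 without the untreated line 560 library and -0.22 without its dox partner.

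Notch2 measured 6.10 and 4.33 FPKM with dox in BME (lines 700 and 889), against 5.77, 7.52 and 6.32 untreated (682, 700 and 889) and 7.08 in the mock library. It was lower in both dox pairs, with overlapping arms and a change of -0.31 (SE 0.19, adjusted p = 0.959), which was -0.52 without the dox library of line 700 and -0.11 without that of line 889. On plastic the dox libraries were close together, at 6.98, 6.37 and 6.08 FPKM, while the untreated ones measured 3.31, 8.05 and 8.91 for lines 560, 700 and 889. Only the untreated line 560 library was below all dox libraries, and the plastic change went from 0.04 to -0.34 without it.

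Notch3 measured 3.76 and 1.81 FPKM with dox in BME against 1.33, 3.48 and 2.31 untreated and 2.16 mock, in the same line order. Both line 700 libraries were above all others, with and without dox. On plastic Notch3 measured 1.14, 0.188 and 0.385 FPKM with dox against 1.98, 0.736 and 0.625 untreated. It was lower in 3 of 3 pairs, by 0.47, 0.55 and 0.23 for lines 560, 700 and 889, but the arms overlapped and the change of -0.42 (SE 0.35) had an adjusted p of 0.815. Of all genes tested on plastic, 18.7% were lower in every pair, and without the untreated line 560 library the change of Notch3 was -0.14.

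The balance between receptors differed between the tables. Within a library the Notch2/Notch1 ratio of FPKM, which cancels any scaling of the whole library, was 0.692 to 1.26 in BME and 2.08 to 14.2 on plastic. It was above 1 in 2 of 6 BME libraries and in 6 of 6 plastic libraries. In lines 700 and 889, grown in both environments, the untreated ratios were 1.17 and 0.902 in BME and 14.2 and 6.10 on plastic. Notch1 made up 31.3% or more of the summed FPKM of the 4 receptors in each BME library and as little as 5.76% on plastic. The environment coincides with the table and its separate normalization, so culture and processing cannot be told apart and no test was made.

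**Figure D2:**
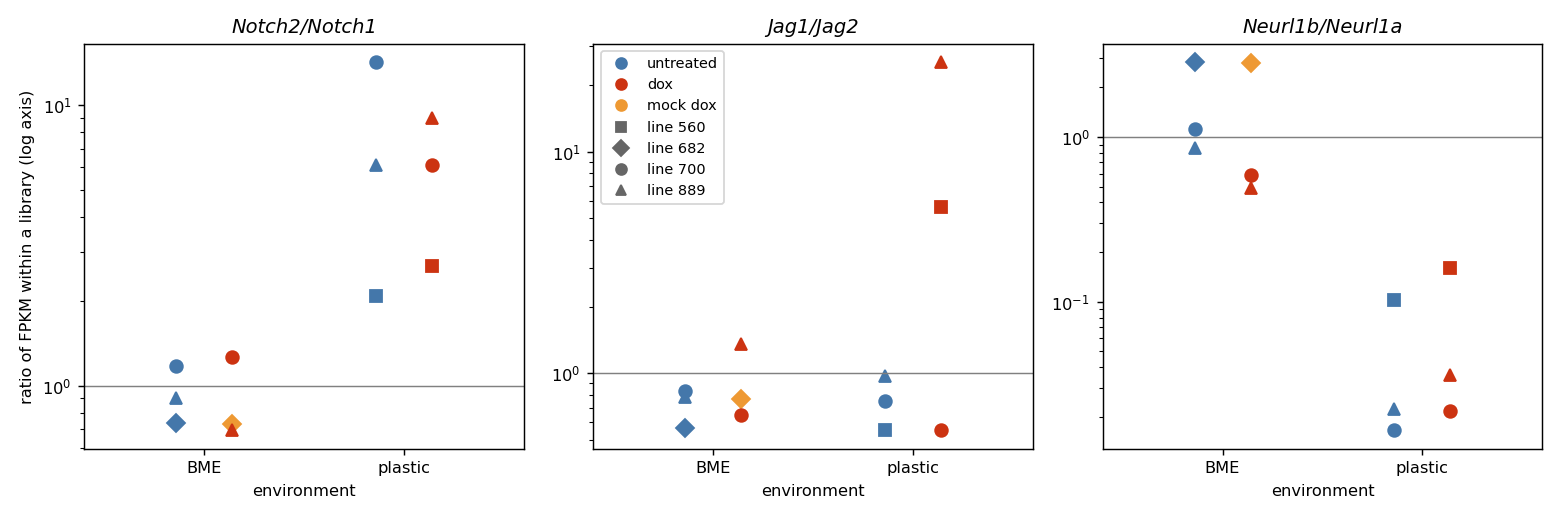
Ratio of 2 related genes within each library on a log axis, for the receptors Notch2 and Notch1, the ligands Jag1 and Jag2, and the ligases Neurl1b and Neurl1a; the line marks a ratio of 1. All 6 plastic libraries lay above 1 for Notch2/Notch1 and below 1 for Neurl1b/Neurl1a, and 3 dox libraries lay above 1 for Jag1/Jag2.

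Of the ligands, Jag1 had the widest range of FPKM on plastic. It measured 49.6 FPKM with dox against 4.51 untreated in line 560 and 127.0 against 7.41 in line 889, which is 11.0-fold and 17.2-fold. In line 700 it measured 8.25 against 11.6 FPKM, 0.708-fold. The values rested on 521 to 11242 rebuilt reads per library. Jag1 was thus much higher with dox in 2 of 3 lines, and the dox library of line 700 lay within the range of the untreated ones. That library also had the least Smad4 of the plastic dox libraries, 18.1 FPKM against 73.6 in line 560 and 48.9 in line 889; the part of Smad4 level in the result was not tested.

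The limma change of Jag1 on plastic was 2.22 (SE 0.92, 95% interval 0.03 to 4.42), and over all genes its adjusted p was 0.599. The two-sided exact permutation test gave p = 0.2, where 3 against 3 libraries allow no value below 0.1. The change ranged from 1.37 without the dox library of line 889 to 3.27 (adjusted p = 0.106) without the dox library of line 700. Without the untreated line 560 library it was 1.92.

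In BME Jag1 measured 20.7 and 22.0 FPKM with dox in lines 700 and 889, and 9.52, 24.0 and 9.28 untreated in lines 682, 700 and 889, with 12.7 in the mock library. The pairs again split by line: line 889 was 2.38-fold higher with dox and line 700 was 0.862-fold. The change was 0.69 (SE 0.38, adjusted p = 0.959), and the mock pair changed by 0.38. The change on plastic exceeded that in BME by 1.54 (SE 1.12, 95% interval -0.93 to 4.00, adjusted p = 1.0), or by 1.24 without the untreated line 560 library. It was 0.68 without the plastic dox library of line 889 and 2.58 without that of line 700, so a difference between environments was not shown. Line 889 was therefore higher with dox and line 700 lower in both environments.

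Jag2, the other Jagged ligand, measured 31.9 and 16.2 FPKM with dox in BME (lines 700 and 889), against 16.8, 28.8 and 11.9 untreated (682, 700 and 889) and 16.6 mock. On plastic it measured 8.78, 14.8 and 5.02 with dox and 8.18, 15.5 and 7.60 untreated in lines 560, 700 and 889. Line 700 was the highest line in both environments, and the arms overlapped in both. The changes were 0.35 (SE 0.39) in BME and -0.16 (SE 0.42) on plastic, or -0.28 without the untreated line 560 library. Jag1 exceeded Jag2 in the BME dox library of line 889 (ratio 1.36) and in the plastic dox libraries of lines 560 (5.65) and 889 (25.3). In the other 2 dox libraries the ratio was 0.648 and 0.556, and it was 0.552 to 0.975 in the 7 control libraries. Jag1 took up 95.6% of the summed ligand FPKM in the plastic dox library of line 889 and 44.0% in its untreated partner.

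The Delta ligands were lower. Dll1, which marks secretory progenitors, measured 6.92 and 2.65 FPKM with dox in BME against 3.56, 3.99 and 2.28 untreated and 4.12 mock. It was higher in both dox pairs, by 0.67 and 0.16, and in the mock pair by 0.17. On plastic it measured 1.62, 2.26 and 0.807 with dox and 0.510, 1.38 and 1.82 untreated (lines 560, 700 and 889), higher in 2 pairs and lower in line 889. The changes were 0.28 (SE 0.35) and 0.20 (SE 0.34), and without the untreated line 560 library the plastic change was -0.06.

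Dll4 measured 0.618 and 1.76 FPKM with dox in BME against 0.986, 0.888 and 2.99 untreated and 0.399 mock. It was lower in both dox pairs and in the mock pair, with a limma change of -0.02 (SE 0.46), and the 4 controls alone spanned 0.399 to 2.99 FPKM. On plastic Dll4 was nearly confined to line 560, at 0.492 FPKM with dox and 0.904 untreated, while the other 4 libraries measured 0.0139 to 0.0732 FPKM on 1 to 4 rebuilt reads.

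Neurl1b, a Neuralized-family ubiquitin ligase that acts on Notch ligands, had the largest change among the members in BME. It measured 3.37 and 2.94 FPKM with dox in lines 700 and 889, against 6.90 and 5.17 in their untreated partners. The line 682 libraries measured 8.68 untreated and 8.44 mock. Both dox libraries were below all 4 controls, and the mock pair differed by only -0.04. The change was -0.98 (SE 0.23, 95% interval -1.52 to -0.43), with an adjusted p of 0.959 and a two-sided exact permutation p = 0.133, again the smallest possible. It ranged from -0.89 to -1.11 when each library was left out, and was -0.51 with the mock library counted as dox. Line 682, the highest for Neurl1b, had no library in the dox arm. The same-line changes were smaller, at -0.85 in line 700 and -0.65 in line 889. With the line as a block the limma change was -0.75 (adjusted p = 0.671).

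Epithelial markers differed in the same BME libraries: their sum was 7510 to 9520 FPKM with dox and 3890 to 4890 in controls. The goblet cell markers lay the other way, with a sum of 557 to 798 FPKM with dox and 939 to 1250 in controls. A single goblet marker reached 992 FPKM in a control library, so the sum there rested largely on that gene. Not every marker in the sum fell: Spdef measured 15.5 FPKM with dox and 15.4 untreated in line 889. The part of cell type in the Neurl1b and Notch1 results was not tested.

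On plastic Neurl1b measured 1.65 FPKM with dox and 1.44 untreated in line 560, 0.159 and 0.233 in line 700, and 0.408 and 0.498 in line 889. The change was -0.02 (SE 0.41), and it turned to 0.26 without the untreated line 560 library. The difference between environments was 0.96 (SE 0.50, adjusted p = 1.0), and 1.24 (adjusted p = 1.0) without that library. Its relative Neurl1a lay the opposite way across tables, at 3.01 to 6.15 FPKM in BME and 7.34 to 22.3 on plastic. The Neurl1b/Neurl1a ratio was 0.493 to 2.84 in BME and 0.0165 to 0.159 on plastic. In untreated lines 700 and 889 it was 1.12 and 0.857 in BME and 0.0165 and 0.0224 on plastic. As for the receptors, culture and the separate processing of the tables cannot be told apart. Within BME that ratio was 0.493 and 0.584 with dox and 0.857 to 2.84 in controls. How far the quantification could share reads between the 2 relatives was not tested.

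Hes1, the main Notch target repressor of the crypt, was well expressed everywhere, above at least 91.2% of listed genes in every library. In BME it measured 86.9 and 65.0 FPKM with dox in lines 700 and 889, against 67.2 and 45.5 in their untreated partners. The mock library measured 73.2 against 52.3 in untreated line 682. Hes1 was thus higher in both dox pairs, by 0.43 ± 0.10 (SD, n = 2), and in the mock pair by 0.48, so the mock pair moved as much as the dox pairs. The arms overlapped and the change was 0.36 (SE 0.24, 95% interval -0.22 to 0.94, adjusted p = 0.959). It was 0.15 without the dox library of line 700 and 0.56 without that of line 889. With the mock library counted as dox and the line as a block it was 0.45, with an adjusted p of 0.199.

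On plastic Hes1 measured 59.1, 43.5 and 60.7 FPKM with dox and 63.9, 44.7 and 39.2 untreated in lines 560, 700 and 889. It was higher in line 889 only, and the change was 0.16 (SE 0.25). Without the untreated line 560 library it was 0.36. Hey1 was listed at 0 in 9 of the 12 libraries and rested on 1 rebuilt read in the other 3. A count of 0 allows up to 3 reads, or 0.0862 to 0.106 FPKM in BME and 0.0671 to 0.0884 on plastic, so a change of Hey1 was not detectable at this depth.

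**Figure D3:**
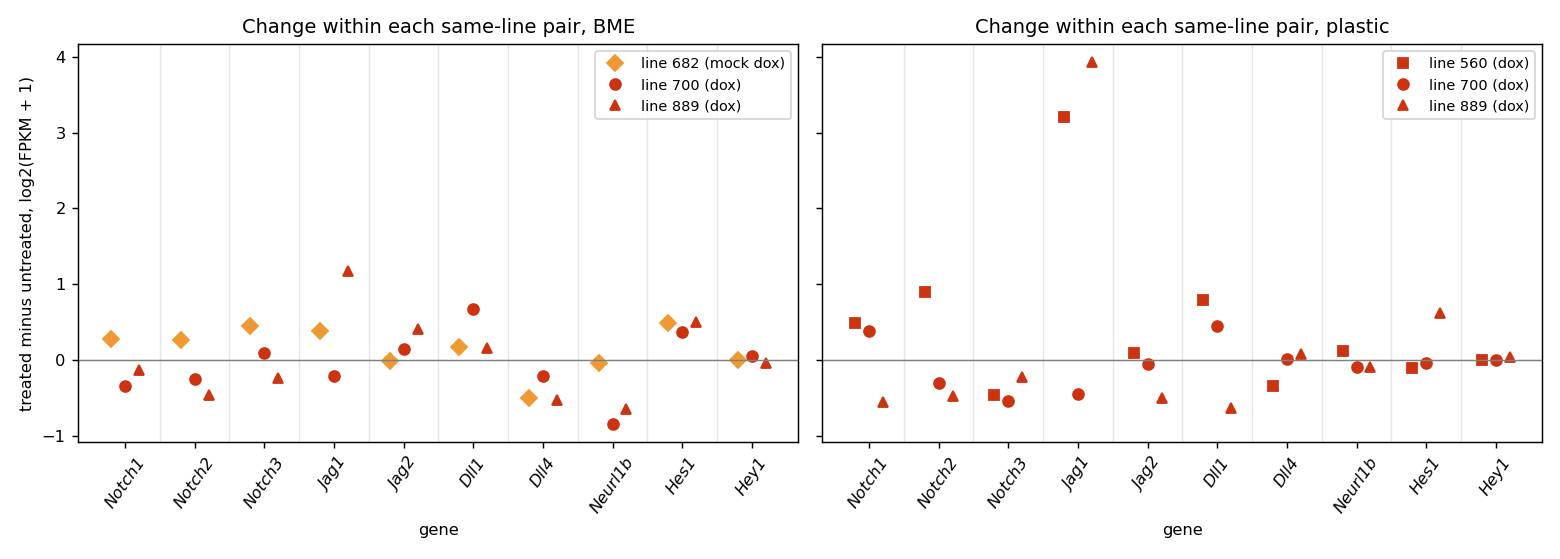
Change within each same-line pair for the 10 genes, as log2(FPKM + 1) of the treated library minus its untreated partner; orange diamonds are the mock pair and red points the dox pairs. Jag1 lies far above the others in lines 560 and 889 on plastic, and Hes1 lay at a like height in the mock pair and both BME dox pairs.

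Over all 5 dox pairs, 0 of the 8 genes tested in both tables moved in 1 direction throughout, where 16.8% of all 11977 genes did. In BME 0 members had every dox library above every control (6.33% of all genes did), and on plastic 0 members were separated downward or upward (7.26% and 7.87%). The interaction of dox with environment called 0 of 8 members, against 0.0% of all genes (0 of 11977), and 0 of them had an unadjusted p under 0.05, against 2.53%. Interaction values of the members ranged from -0.60 for Notch3 (-0.32 without the untreated line 560 library) to 1.54 for Jag1.

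**Figure D4:**
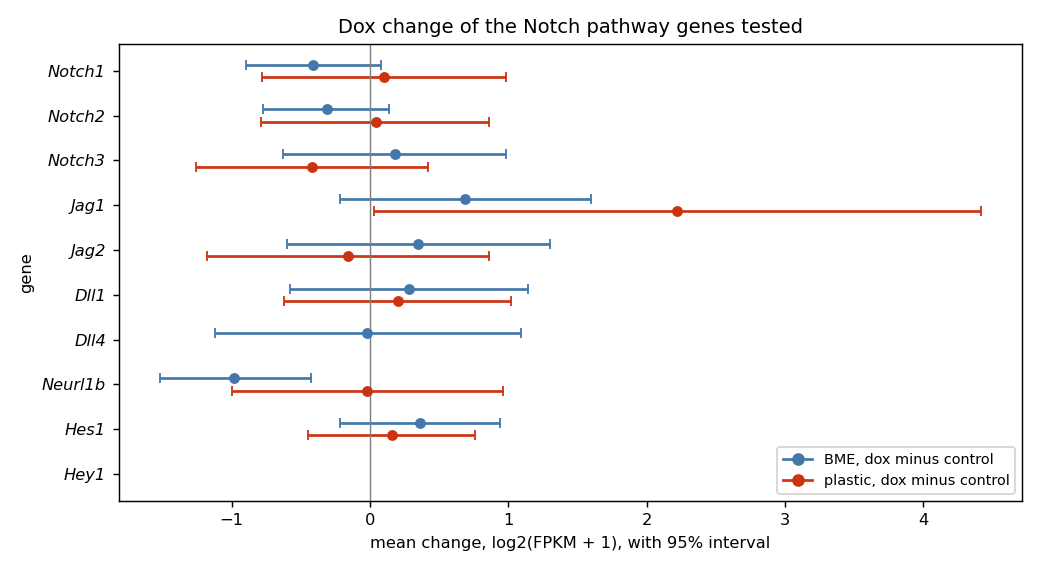
Mean dox change of each gene tested, with its 95% interval from limma, in BME (blue) and on plastic (red); Hey1 was not tested in either and Dll4 not on plastic. Only the intervals of Neurl1b in BME (-1.52 to -0.43) and Jag1 on plastic (0.03 to 4.42) leave out 0, before adjustment over all genes.

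Of the other 66 genes of the pathway, 54 could be tested in BME and 53 on plastic, and limma called 0 in both. At an unadjusted p under 0.05, 1 was higher and 3 were lower in BME (4.09% of all genes passed), and 2 were higher and 2 lower on plastic (8.29%). The median change was -0.06 in BME and 0.07 on plastic. The list has no direction of its own, since it holds activators, repressors and enzymes.

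The nuclear activators, which build the RBPJ complex, leaned 1 way in BME: 8 of 9 were lower in both dox pairs, where 29.5% of all genes were, and their median change was -0.20. Rbpj itself had a change of -0.28 and the acetyltransferase gene Crebbp one of -0.55, each with an adjusted p of 0.959. In the mock pair 2 of the 9 were lower. The contrast of long with short transcripts described above moved the same way. It was 0.01 with dox against 0.07 untreated in line 700, -0.11 against 0.02 in line 889 and 0.14 against -0.11 in the mock pair. Its part in the lean of the nuclear activators was not tested. On plastic 1 of the 9 was lower in all 3 pairs, where 18.7% of all genes were, and the median was 0.05. The plastic pairs differed by line: 7 of the 9 were higher with dox in line 560, Crebbp by 3.41-fold and Rbpj by 1.58-fold, while in lines 700 and 889 together 4 were lower in both pairs (Rbpj among them) and 1, Crebbp, was higher in both. Of all genes, 35.8% were lower and 35.8% higher in both of those pairs. Without the untreated line 560 library the median was -0.07 and the change of Crebbp on plastic went from 0.55 to 0.12. Of the 10 receptor cleavage genes, 5 were higher in every pair in BME and 5 on plastic, where 27.2% and 18.6% of all genes were. In lines 700 and 889 on plastic, a subset added after the data were seen, 9 of the 10 were higher in both pairs, where 35.8% of all genes were. In line 560 on plastic 6 of the 10 were higher, and in the BME mock pair 7. Their median change on plastic was 0.49, and 0.27 without the untreated line 560 library. Rbpj and Crebbp were named after their values were seen. Smaller roles, members included, varied beside the same shares of all genes. In BME 4 of 4 ligand ubiquitination genes were lower and 3 of 3 targets higher in both dox pairs. On plastic 2 of 4 were lower and 0 of 3 higher in every pair. Of the 4 receptor glycosylation genes tested, 0 moved 1 way in every pair in either environment.

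The γ-secretase subunit gene Ncstn was the most regular of the cleavage genes. On plastic it measured 92.4, 90.7 and 111.0 FPKM with dox against 60.0, 59.6 and 58.4 untreated in lines 560, 700 and 889. All 3 dox libraries were above all 3 untreated ones, as for 7.87% of all genes, with a change of 0.71 (SE 0.17, adjusted p = 0.371) and 0.72 without the untreated line 560 library. In BME it measured 97.0 and 134.0 with dox, against 76.9 and 88.2 in the untreated partners and 104.0 against 83.9 in the mock pair, a change of 0.37.

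By size among genes that moved 1 way in every pair, the leading genes in BME were Neurog3, Tle2, Atoh1, Nrarp and Dtx4, each with an adjusted p of 0.959. Atoh1, the secretory commitment factor that HES1 represses, measured 0.632 and 2.60 FPKM with dox in lines 700 and 889 against 2.26 and 7.41 untreated, and 0.538 against 4.07 in the mock pair. Neurog3, which drives the enteroendocrine fate, measured 0.0531 and 2.87 against 0.949 and 6.67, and 1.30 against 5.48 in the mock pair. Atoh1 and Neurog3 were thus lower in all 3 BME pairs, the mock pair included. Spdef, a goblet and Paneth cell factor and the only other secretory factor tested (named after its values were seen), was lower in line 700 and in the mock pair but not in line 889: it measured 6.33 and 15.5 FPKM with dox against 20.5 and 15.4 in the untreated partners, and 21.1 against 24.9 in the mock pair. On plastic 0 of the 3 factors were lower in every pair. Atoh1 and Neurog3 rested there on at most 9 rebuilt reads per library in lines 700 and 889, too few to show a fall. In line 560 all 3 were lower with dox: Atoh1 at 4.10 against 4.88 FPKM, Neurog3 at 1.05 against 2.75 and Spdef at 6.23 against 17.6. The untreated library of that pair is the one set apart by transcript length above. Spdef measured 0.248 against 0.295 in line 700 and 1.53 against 0.0388 in line 889. The limma changes in BME, in which the mock library counts as a control, were -0.66 (SE 0.70) for Atoh1, -0.94 (SE 0.77) for Neurog3 and -0.95 (SE 0.35) for Spdef. Before adjustment Spdef alone of the 3 was under 0.05, at a limma p of 0.0334, and its adjusted p was 0.959.

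The feedback inhibitor and Notch target Nrarp measured 14.7 and 21.4 FPKM with dox against 13.0 and 13.5 in the untreated partners, and 11.0 against 8.60 in the mock pair. It was higher in all 3 BME pairs, with a limma change of 0.60 (SE 0.24). On plastic its pairs were mixed, at 0.44, -0.40 and 0.73 for lines 560, 700 and 889. Hes7, the third target tested in BME (named after its values were seen), was higher in both dox pairs, by 0.51 and 0.66, and lower in the mock pair, at -0.18, on 8 to 25 rebuilt reads per library. The limma change of the corepressor Tle2 was 0.79, with 0.66 and 1.73 in the dox pairs of lines 700 and 889 and 0.50 in the mock pair. That of the ubiquitin ligase Dtx4 was -0.60, with -0.85 in line 700, -0.10 in line 889 and -0.07 in the mock pair.

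On plastic the leading genes were Tle3, Numbl, Neurl1a, Ncstn and Kat2a. The corepressor Tle3 measured 28.6, 3.26 and 18.4 FPKM with dox against 11.3, 1.06 and 1.70 untreated in lines 560, 700 and 889, a change of 1.72 (SE 0.93, adjusted p = 0.677). Numbl, a relative of the Notch antagonist Numb, measured 5.56, 27.6 and 12.9 against 4.69, 5.47 and 5.31, a change of 1.16 (adjusted p = 0.613). Neurl1a measured 10.4, 7.34 and 11.5 against 14.1, 14.2 and 22.3, a change of -0.73 (adjusted p = 0.567). All 3 dox libraries were below all 3 untreated ones for Neurl1a and for the acetyltransferase gene Kat2a, as for 7.26% of all genes. Kat2a had a change of -0.65 (adjusted p = 0.567). Without the untreated line 560 library the changes were 2.51 for Tle3, 1.11 for Numbl, -0.83 for Neurl1a and -0.48 for Kat2a, with adjusted p from 0.468 to 0.59.

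**Figure D5:**
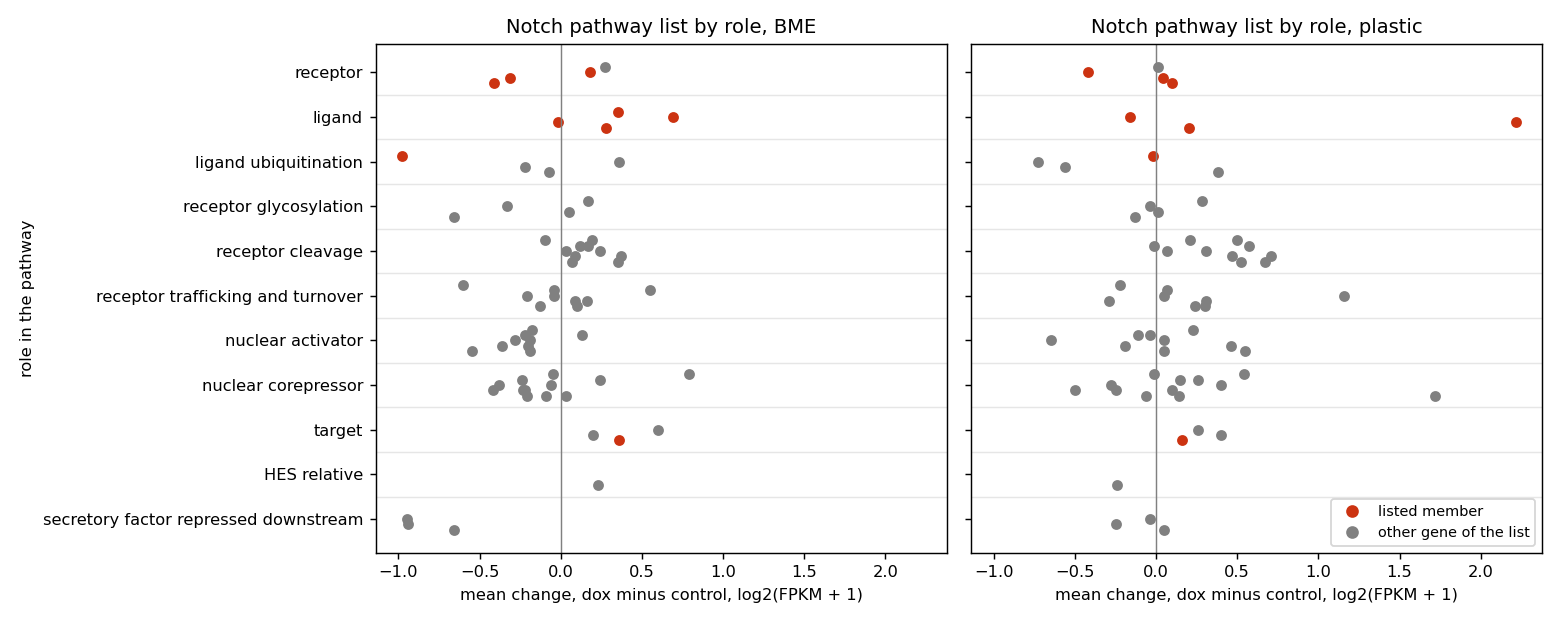
Mean dox change of every tested gene of the pathway list, grouped by role, in BME (left) and on plastic (right), with the 10 named genes in red and the other genes in gray. Jag1 and Tle3 lie farthest right on plastic, Neurl1b, Spdef and Neurog3 farthest left in BME, and none was called.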

How the data were processed

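RNA-Seq of 12 organoid libraries was used as deposited. FPKM values had been made by the authors with kallisto and DESeq2 (mm9 in the submitters' processing notes; versions are not given in the sources used here), with BME and plastic normalized separately. Deposited mean normalized counts (a signal averaged by the authors over the libraries of a table) served to rebuild reads: 87.1% to 89.6% of low values (normalized counts under 12) per library came out whole within 0.05. Intervals and floors on reads cover counting error only. The authors' fold change and p-value columns for dox against no dox were not used.

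Changes were tested on log2(FPKM + 1) with limma 3.58.1 (two-sided, eBayes with a trend; R 4.3.3) and no block, with Benjamini-Hochberg adjustment over all genes at a mean FPKM of at least 0.5. The interaction fit used all 12 libraries with an environment term. Scripts were tested on simulated data with 200 changed genes. Same-numbered libraries are the same organoid line, and their deviations from the group means correlated across genes (r = 0.46, 0.61 and 0.25 for lines 560, 700 and 889 on plastic, 0.74 in BME); p-values measure the spread between these lines. Alternatives were pseudocount 0.1, no filter, line as block, 2 rescalings, limma-voom on rebuilt reads, other places for the mock library, lines 700 and 889 alone, and leaving out each library.

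All 10 members are named. Other pathway genes are named where they were called or were the 5 largest changes, per environment, among those moving 1 way in every dox pair. The members and lists were chosen with earlier results of these data known. Gene positions are from GENCODE on NCBIM37 and promoter windows from RefSeq on GRCm38.p6.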

Additional observations from a re-analysis of the deposited data

How the results depend on the processing

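No member was called under any alternative. Of 126 member changes recomputed in BME 9 changed sign, as did 11 of 96 on plastic and 9 of 150 in the interaction; the lowest adjusted p was 0.199 in BME (Hes1), 0.106 on plastic (Jag1) and 0.864 in the interaction (Jag1). Signs turned with the line as a block for Notch3 in BME (-0.07), with pseudocount 0.1 for Dll4 in BME (0.03) and Dll1 in the interaction (0.03), with quantile normalization for Dll4 in BME (0.01) and Notch2 on plastic (-0.02), with limma-voom for Dll4 in BME (0.06) and Dll1 in the interaction (0.11), and in lines 700 and 889 alone for Notch2 in the interaction (-0.03). Notch3 and Neurl1b were too low to be tested in that last setting.

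When each library was left out, BME changes ranged from -0.20 to 0.56 for Notch3, -0.11 to 0.82 for Jag2, -0.28 to 0.84 for Dll1 and -0.40 to 0.37 for Dll4, and without a change of sign from -0.57 to -0.26 for Notch1, -0.52 to -0.11 for Notch2, 0.54 to 0.97 for Jag1 and 0.15 to 0.56 for Hes1. Plastic changes ranged from -0.22 to 0.34 for Notch1, -0.34 to 0.26 for Notch2, -0.51 to 0.19 for Jag2, -0.06 to 0.43 for Dll1 and -0.37 to 0.26 for Neurl1b, and without a change of sign from -0.66 to -0.14 for Notch3 and 0.01 to 0.36 for Hes1. Interaction values ranged from -0.03 to 0.57 for Notch2, -0.64 to 0.48 for Dll1 and -0.41 to 0.01 for Hes1, and without a change of sign from 0.19 to 0.75 for Notch1, -0.98 to -0.22 for Notch3, 0.68 to 2.58 for Jag1, -0.98 to -0.05 for Jag2 and 0.60 to 1.24 for Neurl1b.

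Counts over all genes depended on the setting. In BME 3 genes were called, against 1 with pseudocount 0.1, 1 with limma-voom, 0 with the line as a block, 0 with the mock library counted as dox and 0 with both (this last chosen after the data were seen). Leaving out each library gave 0 to 37, with 37 without the dox library of line 700. On plastic 4 were called, against 10 with pseudocount 0.1, 11 with limma-voom, 7 with the line as a block and 0 without a filter, and 0 to 55 when each library was left out, with 55 without the dox library of line 700. In the interaction 0 were called and 5 without a filter. The block changed no other call. The cause of these shifts was not tested. The interval of Jag1 on plastic, 0.03 to 4.42, was wide, and its pairs split by line. With the same 3 libraries per arm the interval of Hes1 on plastic was -0.45 to 0.76.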

Other observations

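The markers of intestinal cell types, which Notch activity is known to balance, varied widely between libraries. In BME the summed FPKM of 4 stem cell markers (Lgr5, Olfm4, Ascl2 and Smoc2) was 116 to 182 with dox and 173 to 237 in controls, and that of 6 absorptive markers was 13.3 to 55.6 with dox and 1.19 to 17.7 in controls. Paneth cell markers ranged from 22.7 to 1890 with dox and from 10.7 to 3370 in controls. On plastic stem cell markers summed to 1.06 to 53.6 with dox and 1.39 to 93.9 untreated, and goblet cell markers to 2.94 to 626 and 2.68 to 1040. Enteroendocrine markers stayed at or below 8.59 and tuft cell markers at or below 15.6 in all 12 libraries. Leukocyte markers summed to 39.3 in the plastic dox library of line 889, of which 38.7 was Cd68 alone and 0.6 the other 5 markers. No test was run on these sums.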
